A study of Mus musculus with 34 samples.

Results

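The Spata, Tex, Tssk and Spaca genes were followed through the epididymal fat of mice that ate a high fat diet over successive generations. They were all genes with a single annotated symbol, current by gene ID, that begins with Spata, Tex, Tssk or Spaca and a digit, apart from Spaca1. This gave 66 genes on 70 probes, of 18617 named genes on the array, with 24 Spata, 32 Tex, 6 Tssk and 4 Spaca genes. The values of the 4 genes with more than 1 probe were averaged.

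The names record where the genes were found. Spata stands for spermatogenesis associated, Tex for testis expressed, Tssk for testis-specific serine kinase and Spaca for sperm acrosome associated. The families are not built on shared sequence throughout: Tssk genes encode related protein kinases, whereas Spata and Tex gather unrelated proteins. In the testis, spermatogonia divide, enter meiosis as spermatocytes and mature as spermatids, which condense their chromatin, form an acrosome over the nucleus and grow a flagellum. Many members act at these late steps. Others, such as Spata2, Tex10, Tex261 and Tex264, have work in most cells. Fat itself holds adipocytes, vessels, mesothelium and immune cells but no male germ cells, and the epididymal fat pad lies against the epididymis and testis.

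HF4 mice were high fat offspring of HF3, HF3 came from an HF2 generation that was not analysed here, HF1 were offspring of HF0, and HF0 ate the high fat diet as offspring of STD mice, which ate a normal diet. HF4-REV, HF3-REV and HF1-REV mice shared the parents of HF4, HF3 and HF1 but ate the normal diet. Experiment 1 held 12 two-colour arrays, with each pairing of STD, HF0, HF3 and HF4 in both dye orientations. Experiment 2 held 22, with each pairing of HF0, HF1, HF3 and HF4 in both orientations, HF0 with STD on 4 arrays, and each of the 3 reversal groups with its high fat group on 2. The labels give no strain, no age and no number of animals or extracts behind a group, so the p-values reflect only how these samples varied, which may be technical.

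The values are log ratios, assumed to be of base 2 and read as Cy5 over Cy3. Signs were set so that, in HF4 over HF0, HF4 is on top. The sources used here do not give the numerator dye. With Cy5 on top, a positive ratio is more RNA in the group named first; with Cy3 on top it is less RNA there. Only relative directions are therefore described, and no ratio was turned into a fold. Intensities were not used here, so the presence of adipocyte RNA could not be checked as a level. In bulk tissue, fewer cells of a type and less RNA per cell cannot be told apart. Estimates are least-squares group differences over all pairings ± SE, and a gene passed at a limma adjusted p under 0.05 over all 22879 features tested. For STD, HF0, HF3 and HF4, n = 2 experiments; for HF1 and the reversal groups, n = 1, and they were assumed to vary like the others.

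In experiment 1 the pairings contradicted each other for these genes. On the direct arrays of HF3 over HF0 the members had a median of 1.20, with 58 of 66 positive. The same contrast came to -0.11 when summed through STD and to 0.14 when summed through HF4. HF3 differed little from STD directly (median 0.043), and HF0 differed little from STD directly (median 0.13), yet HF3 stood far from HF0. Around the loop of STD, HF0 and HF3 the median absolute gap was 1.31 for the members, against 0.26 for all features, and around HF0, HF3 and HF4 it was 1.10 against 0.24. The other 2 loops of experiment 1 had gaps of 0.34 and 0.36, and the 4 loops of experiment 2 had gaps between 0.21 and 0.30. Leaving out the HF3 with HF0 pairing of experiment 1 gave the members a residual mean square of 0.123, against 0.562 with all pairings, while leaving out any other single pairing left it between 0.449 and 0.785. The 2 dye orientations of that HF3 with HF0 pairing correlated at 0.5 over all features and 0.83 over the members. Those of HF3 with STD in experiment 1 correlated at -0.11 and -0.42. The other pairings of experiment 1 lay between 0.65 and 0.89 over the members. Which pairing was at fault, and why the loops did not close, was not tested. Counts or medians are therefore also given without that pairing for HF4 over each other group, HF3 over HF0 or HF1, and HF1 over HF0. Contrasts are set beside their direct arrays. Estimates of the other contrasts, of most single genes and of the marker lists come from the fit over all pairings only. Without that pairing 0 of all features passed in HF4 over HF0, so no single-gene call there held without it.

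**Figure D1:**
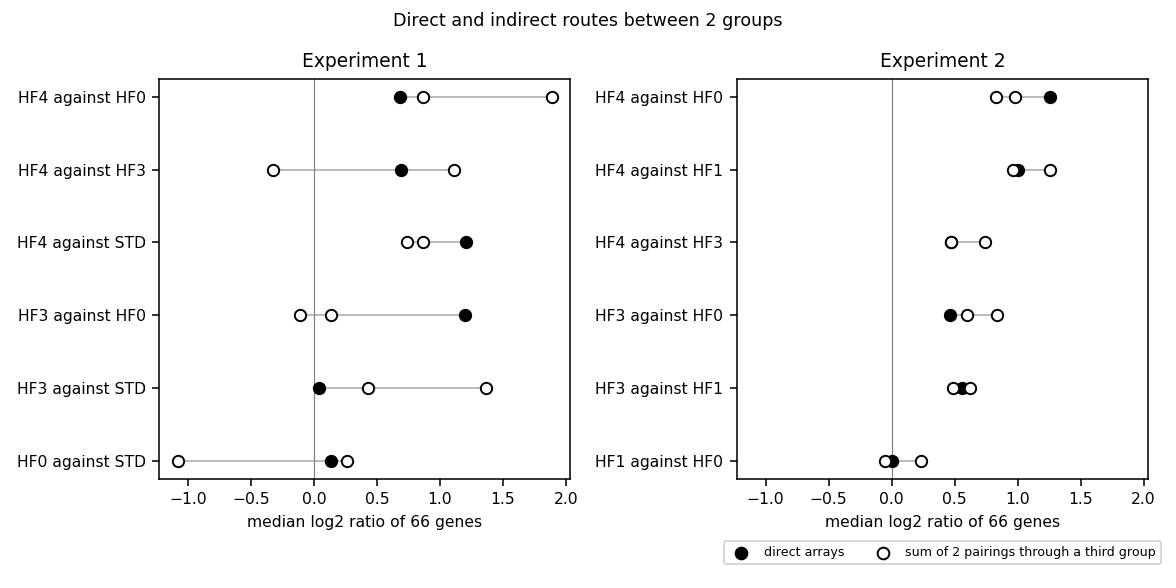
Median log2 ratio of the 66 genes for each contrast, on the arrays that hold both groups (filled) and summed over the pairings through another group (open), in experiment 1 (left) and experiment 2 (right). In experiment 1 HF3 against HF0 reads 1.20 directly but -0.11 and 0.14 indirectly, whereas in experiment 2 its 3 routes lie between 0.47 and 0.84.

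The first contrast sets the last high fat generation beside the first. In HF4 over HF0, 60 of 66 members had a positive estimate, with a median of 1.02 and a range of -0.38 to 3.76, against a median of -0.032 over all features. Of the members, 29 passed, all of them positive, where 4.19% of all features passed on that side and 0.0175% on the negative side. The 29 were 11 Spata, 13 Tex, 3 Tssk and 2 Spaca genes, and all 4 arrays were positive for each. The direct arrays alone, which do not rest on the pairing that failed to close, had member medians of 0.73 and 0.76 in experiment 1 and 1.53 and 1.13 in experiment 2. All 4 of them were positive for 45 of 66 members, against 9.82% of all features. Without the HF3 with HF0 pairing of experiment 1 the median was 0.85 and 0 members passed with limma (41 at an unadjusted p under 0.05), and 0 of all features passed. With the direct pairings tested on their own, 0 members passed as well (39 unadjusted), and 0 of all features did. In the fit over all pairings 45 members had an unadjusted p under 0.05, against 10.9% of all features. That share is not given here for the other settings. The positive median thus appeared on each of the 4 arrays, while the number of calls rested on the 2 arrays of another pairing.

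**Figure D2:**
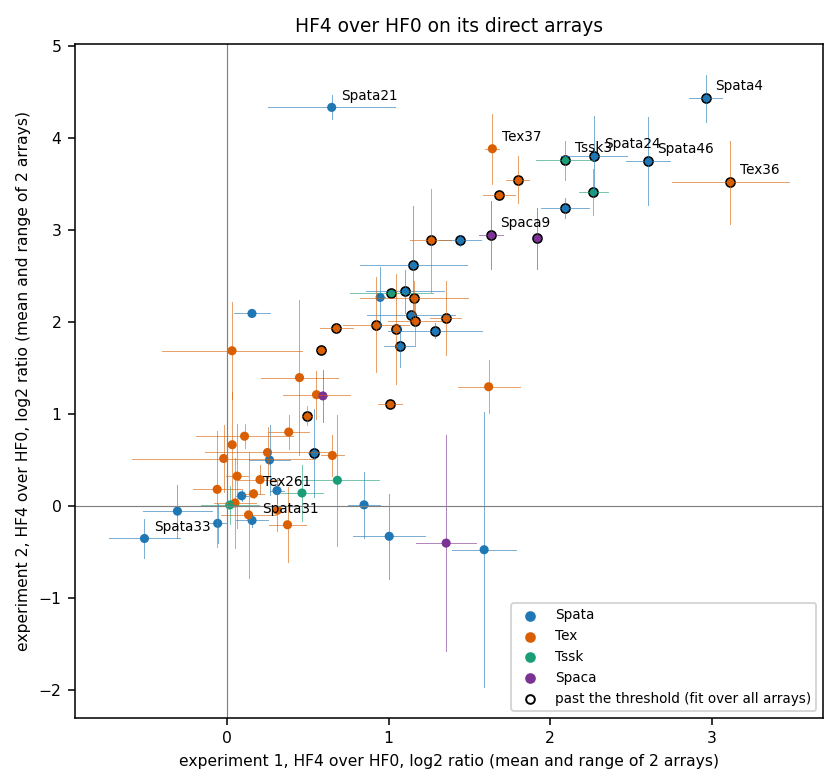
Each point is 1 of 66 genes, with its mean log2 ratio of HF4 over HF0 on the 2 arrays of experiment 1 (horizontal) and of experiment 2 (vertical). Lines span the 2 arrays, colours give the family and black rims mark the 29 genes past the threshold. Most genes lie in the upper right, led by Spata4, Spata46, Spata24 and Tex36, with a cluster near 0 that includes Tex261 and Spata31.

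Spata4 had the largest estimate of HF4 over HF0. Its ratios were 3.06 and 2.86 on the arrays of experiment 1 and 4.69 and 4.18 on those of experiment 2. All 4 arrays lay far above 0, and the estimate was 3.76 ± 0.46 (adjusted p = 0.0115), or 3.36 ± 0.69 without the pairing that did not close (adjusted p = 0.156). Spata46 had 2.47 and 2.74 in experiment 1 and 4.24 and 3.27 in experiment 2, with an estimate of 3.48 ± 0.46 (adjusted p = 0.014). Tex36 had 2.75 and 3.48, then 3.98 and 3.07, with an estimate of 3.23 ± 0.29 (adjusted p = 0.00758). The experiments overlapped for Tex36 but not for Spata4 and Spata46, whose ratios were higher in experiment 2. The promoters of these 3 genes, which had some of the largest estimates past the threshold, are shown beside that of Tex261, whose estimate was the nearest to 0. Each runs 5′ to 3′ over the 250 bases before a start in RefSeq's GRCm38.p6. For Spata4, Spata46 and Tex36 that is the start of the gene's whole span, and for Tex261 it is a start inside that span, so the window lies within the annotated gene. Spata4 lies at chr8:54600531-54600780 on the plus strand, Spata46 at chr1:170308569-170308818 on the plus strand, Tex36 at chr7:133602116-133602365 on the minus strand and Tex261 at chr6:83775813-83776062 on the minus strand. Capitals mark matches on either strand to the motifs searched.
Spata4: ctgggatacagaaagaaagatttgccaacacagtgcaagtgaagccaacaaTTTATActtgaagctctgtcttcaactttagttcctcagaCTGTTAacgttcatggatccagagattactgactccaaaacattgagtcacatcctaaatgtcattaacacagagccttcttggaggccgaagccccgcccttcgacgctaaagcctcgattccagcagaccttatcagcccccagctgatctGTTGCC
Spata46: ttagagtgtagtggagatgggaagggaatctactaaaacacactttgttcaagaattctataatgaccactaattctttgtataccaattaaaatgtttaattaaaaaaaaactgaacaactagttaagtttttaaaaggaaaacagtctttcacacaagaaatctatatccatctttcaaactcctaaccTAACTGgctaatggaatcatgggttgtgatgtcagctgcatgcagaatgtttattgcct
Tex36: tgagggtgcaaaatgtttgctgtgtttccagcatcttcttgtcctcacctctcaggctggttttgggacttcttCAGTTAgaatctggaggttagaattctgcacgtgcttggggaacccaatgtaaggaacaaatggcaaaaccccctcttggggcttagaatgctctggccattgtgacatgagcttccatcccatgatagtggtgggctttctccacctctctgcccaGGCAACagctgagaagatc
Tex261: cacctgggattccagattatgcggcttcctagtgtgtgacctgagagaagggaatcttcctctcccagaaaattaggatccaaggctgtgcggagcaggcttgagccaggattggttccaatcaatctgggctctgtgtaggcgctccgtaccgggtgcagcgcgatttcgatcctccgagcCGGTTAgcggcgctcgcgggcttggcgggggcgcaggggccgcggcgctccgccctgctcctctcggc

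The motifs searched were TGACGTCA, the cyclic AMP response element bound by factors such as CREM of spermatids, its shorter core TGACG, which every TGACGTCA also holds, GTTGCC, part of the box bound by RFX factors, TAACNG, a MYB family site, and TATAAA. Promoters were found for 56 of the 66 members, 68 in all. TGACGTCA was in 0 of 68, against 1.55% of all 32851 promoters in the table, which says only that these letters are not in these windows. TGACG was in 19.1% of member promoters and 17.8% of all, GTTGCC in 16.2% and 10.4%, TAACNG in 20.6% and 19.8%, and TATAAA in 7.35% and 12.4%. The 4 promoters shown all hold TAACNG, among them that of Tex261, so the match does not separate it from the others.

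Among the Spata genes, 20 of 24 were positive in HF4 over HF0, with a median of 1.29, and 11 passed. Spata24 lay between Spata4 and Spata46 (3.58 ± 0.56, adjusted p = 0.0231), with 2.47 and 2.07 in experiment 1 and 3.38 and 4.25 in experiment 2. Spata1 stood at 2.99 ± 0.14 with the lowest adjusted p of the members (0.00486). Its arrays read 2.24 and 1.94 in experiment 1 and 3.13 and 3.35 in experiment 2, so the experiments did not overlap. Spata7, which also serves the photoreceptor cilium and is mutated in human retinal dystrophy, had an estimate of 2.52 ± 0.34, and Spata16, an acrosome protein whose loss causes round-headed sperm in humans, one of 2.19 ± 0.26. Spata48 followed at 1.86 ± 0.15 and Spata3 at 1.82 ± 0.26. The 2 probes of Spata16 ran the same way, at 1.34 and 2.13 in experiment 1 and 2.03 and 3.27 in experiment 2, as did those of Spata3. Spata21 had a large estimate that did not pass (2.82 ± 0.75, adjusted p = 0.149), with 1.04 and 0.25 in experiment 1 against 4.21 and 4.47 in experiment 2.

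Among the Tex genes, 31 of 32 were positive in HF4 over HF0, with a median of 0.96, and 13 passed. Behind Tex36 stood Tex43, a protein inside sperm microtubules (2.89 ± 0.41), Tex22 (2.78 ± 0.39), Tex48 (2.12 ± 0.38) and Tex38, a partner of a palmitoyltransferase in sperm (2.04 ± 0.14). Tex43 had 1.87 and 1.72 in experiment 1 and 3.30 and 3.81 in experiment 2, which do not overlap. Tex15, needed for meiotic repair and piRNA-directed silencing in male germ cells, had 0.82 and 1.49 in experiment 1 and 2.45 and 2.09 in experiment 2 (1.83 ± 0.16, adjusted p = 0.00733). Tex45 reached 1.64 ± 0.26 and the X-linked Tex13a 1.63 ± 0.19. Tex37, at 3.03 ± 0.62, did not pass (adjusted p = 0.0567), although its 4 arrays read 1.60, 1.68, 4.27 and 3.50. Tex12, of the synaptonemal complex, passed at 0.99 ± 0.14. Tex11, which acts in meiotic recombination, had 0.35 ± 0.12 (adjusted p = 0.337) and Tex14, of the bridges between germ cells, 0.096 ± 0.13 (adjusted p = 0.922).

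The 6 Tssk genes encode kinases found in spermatids, and 3 of them passed in HF4 over HF0 while 3 had small ratios that did not. Tssk3 had 2.27 and 1.91 in HF4 over HF0 of experiment 1 and 3.55 and 3.98 in experiment 2 (3.19 ± 0.43, adjusted p = 0.0152). Tssk1 had 2.35 and 2.18, then 3.67 and 3.17 (2.76 ± 0.52, adjusted p = 0.0428). Tssk6, needed for chromatin condensation in mouse sperm, had 1.27 and 0.76, then 2.34 and 2.29 (1.63 ± 0.23, adjusted p = 0.0161). For these 3 kinases every array was positive and experiment 2 lay above experiment 1. Tssk2, which neighbours Tssk1 on chromosome 16 and is needed with it for male fertility in mice, had 0.33 and 0.60, then 0.45 and -0.16 (0.33 ± 0.16, adjusted p = 0.581). Tssk4, which acts on the outer dense fibre protein Odf2, had 0.42 and 0.94, then 1.00 and -0.43 (0.56 ± 0.13, adjusted p = 0.0955). Tssk5 had -0.16 and 0.20, then 0.22 and -0.19 (-0.011 ± 0.13, adjusted p = 0.996), so its arrays lay on both sides of 0 in each experiment.

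The 4 Spaca genes belong to the acrosome or the sperm surface by name. Spaca9, also found inside microtubules of cilia and flagella, had 1.71 and 1.56 in HF4 over HF0 of experiment 1 and 2.58 and 3.32 in experiment 2 (2.64 ± 0.44, adjusted p = 0.0274). Spaca7, an acrosome protein linked to dispersal of the cumulus around the egg in mice, had 1.90 and 1.94, then 3.25 and 2.58 (2.53 ± 0.21, adjusted p = 0.00707). Spaca4, which helps mouse sperm bind the zona, had 0.62 and 0.57, then 0.92 and 1.48 (0.77 ± 0.16, adjusted p = 0.061). These 3 genes were positive on all 4 arrays. Spaca3, a lysozyme-like acrosome protein, had 1.54 and 1.17 in experiment 1 but -1.58 and 0.78 in experiment 2 (0.60 ± 0.52, adjusted p = 0.842).

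Spaca3, Spata6 and Spata9 kept nearly 1 sign by dye in experiment 2. Spata6, needed for the link between sperm head and tail in mice, read Cy5 over Cy3 above 0 on 22 of 22 arrays of experiment 2 before the ratios were turned, with a mean of 1.35 and a range of 0.044 to 3.39. Spaca3 did so on 21 of 22 (mean 1.28) and Spata9 on 20 of 22 (mean 0.68). The first-named group was in Cy5 on 11 of the 22 arrays, and the cause of the fixed sign was not tested. In experiment 1 the means were 0.23, 0.12 and -0.039 over 12 arrays. There the HF4 over HF0 ratios of Spata6 were 1.79 and 1.39, but in experiment 2 they were -1.97 and 1.02. In all, 6 members had an absolute dye mean above 0.5 in experiment 2 and 2 had one in experiment 1. The 2 probes of Spata9 disagreed, at 2.24 and 0.34 for HF4 over HF0 in experiment 1 and -0.66 and 0.036 in experiment 2.

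The members nearest 0 in HF4 over HF0 were Tex261 (0.0097 ± 0.14), Tssk5, Tex16 (0.037 ± 0.11), Spata2l (-0.054 ± 0.15), Spata31 (0.057 ± 0.12), Tex14 and Spata2 (-0.10 ± 0.18). Spata2 couples the deubiquitinase CYLD to the ubiquitin ligase complex of TNF signalling. Only 6 members had a negative estimate. Spata33, which places calcineurin in mouse sperm tails, was the most negative at -0.38 ± 0.29 (adjusted p = 0.811), with -0.29 and -0.73 in experiment 1 and -0.56 and -0.14 in experiment 2. Its 4 arrays were all below 0, but 0 members passed on the negative side of any contrast. Tex264, a receptor for the autophagy of endoplasmic reticulum, had -0.16 ± 0.17. Probe sequences were not used here, so signal shared between close relatives, such as Spata31d1a with Spata31d1d or Tex19.1 with Tex19.2, could not be checked, and those genes are uncertain. Spata31d1d stood at 1.61 ± 0.32 and Spata31d1a at 0.36 ± 0.12, and Tex19.2 at 1.13 ± 0.23 and Tex19.1 at 0.43 ± 0.15, with 0 of the 4 past the threshold.

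**Figure D3:**
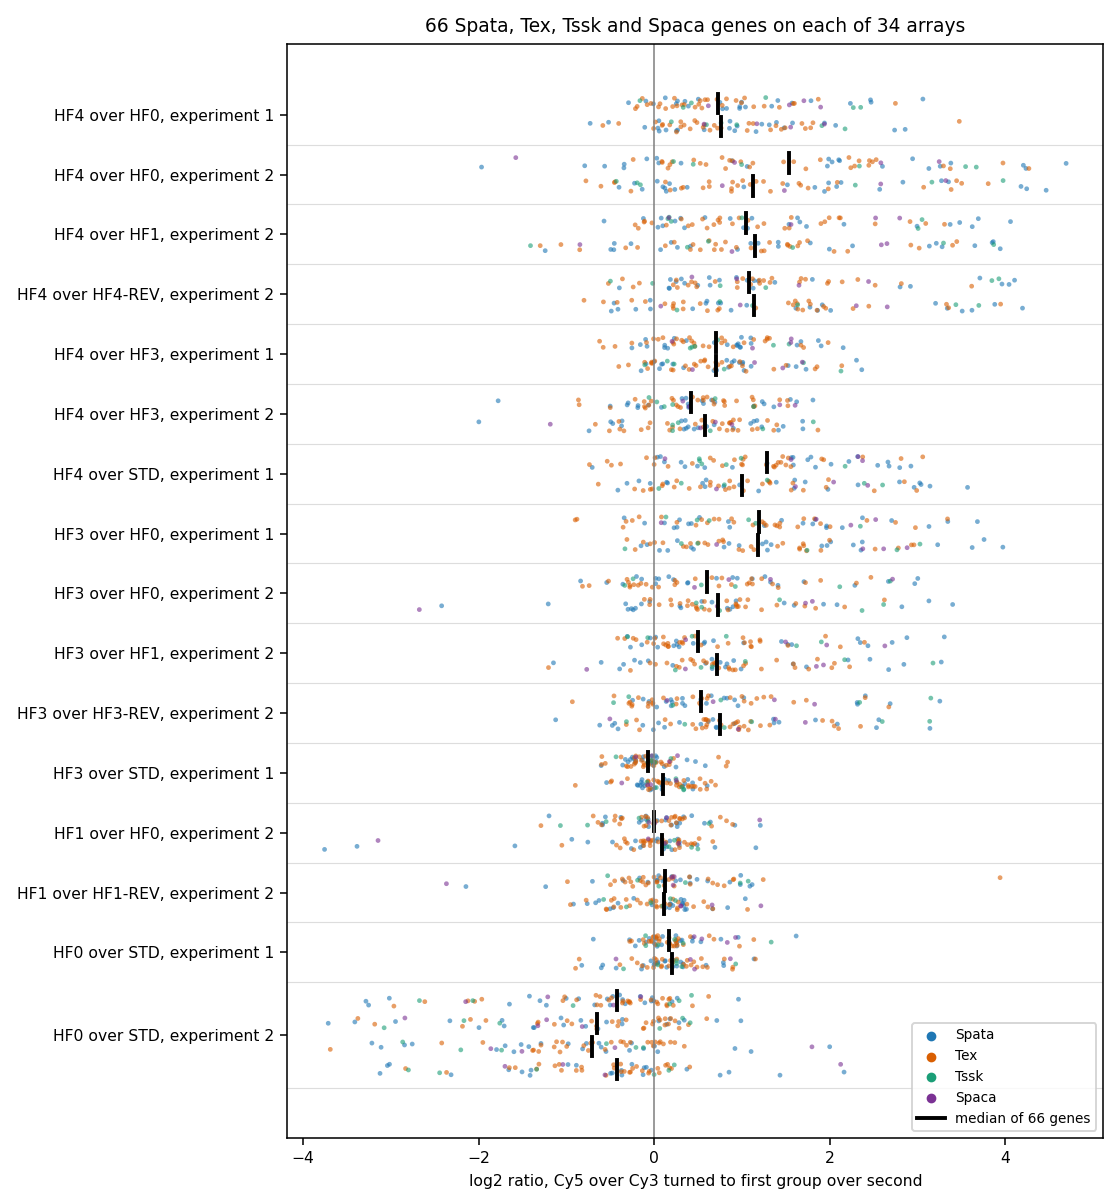
Log2 ratios of the 66 genes on each of 34 arrays, 1 row per array, grouped by pairing with the first-named group over the second. Points are genes coloured by family and bars are array medians. Every array that sets HF4 over another group has a median of 0.42 or more, HF3 over STD and HF1 over HF0 centre near 0, and HF0 over STD lies right of 0 in experiment 1 and left of 0 in experiment 2.

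HF4 was set directly over its diet reversal group, which shared its parents. The members had medians of 1.08 and 1.14 on the 2 arrays of HF4 over HF4-REV, and both arrays were positive for 50 of 66, against 31.4% of all features. In the fit, 33 members passed, all positive, where 7.35% of features passed on that side and 3.8% on the negative side, and the median was 1.10. Spata4 had 3.96 and 3.88 on these arrays (4.12 ± 0.58, adjusted p = 0.0178). Tssk3 had 3.85 and 3.70 (3.78 ± 0.55, adjusted p = 0.0183), and Tssk1 had 3.93 and 3.44 (3.67 ± 0.66, adjusted p = 0.0267). Tssk2, which did not pass in HF4 over HF0, had 0.75 and 1.12 here (1.10 ± 0.21, adjusted p = 0.0285). Tex261 was the most negative member, with -0.52 and -0.80 (-0.70 ± 0.18, adjusted p = 0.0562). Without the pairing that did not close, 7 members passed, while 5.87% of all features passed in either direction. Spata4 then had 4.12 ± 0.88 (adjusted p = 0.0527) and Spata1 1.79 ± 0.35 (adjusted p = 0.0462). Only the errors could change here. In the fit that pairing moves HF3 and HF0 alone, so the unchanged estimates say nothing about its influence. With the direct pairings tested on their own 0 members passed (37 unadjusted), where 0.411% of features did, and under quantile normalization 1 member passed. In the fit over all pairings 48 members had an unadjusted p under 0.05, against 31.4% of features.

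The same setting for the earlier generations gave smaller ratios. In HF3 over HF3-REV the member medians were 0.53 and 0.75 on the 2 arrays, both arrays were positive for 39 of 66 members (23% of all features), and 0 members passed (32 at an unadjusted p under 0.05, against 15.4% of features), while 0.0874% of features did, 0.0524% positive and 0.035% negative. Spata4 led with 3.26 and 3.14 (3.08 ± 0.58, adjusted p = 0.106), and Tssk1 had 3.15 and 3.14 (2.97 ± 0.66, adjusted p = 0.132). Tex261 was again the lowest (-0.39 ± 0.18). The count rested on single arrays. With either array of this pairing left out, 15 or 19 members passed (no share of features is given here). Without the STD arrays of experiment 2, 21 did, where 3.87% of features passed. In HF1 over HF1-REV the medians were 0.12 and 0.11, both arrays were positive for 21 of 66 (16.7% of all features), and 0 members passed (2 unadjusted, against 3.59%). Its extremes disagreed between the arrays: Tex37 had 3.94 and -0.95, and Spata6 had -2.14 and 0.32. The 2 arrays of this pairing correlated at -0.31 over all 22879 features, so they carry little shared signal. Set against each other in the same fit, HF4 over HF4-REV exceeded HF1 over HF1-REV by a median of 1.17 and exceeded HF3 over HF3-REV by 0.53, but 0 members passed in either test (35 and 12 unadjusted, where 18.4% and 16.7% of features had an unadjusted p under 0.05). These counts rested on few arrays: without the STD arrays of experiment 2 they were 17 and 1, where 5.48% and 2.41% of features passed. The first was 11 without replicate 1 of HF1 with HF1-REV, and 5 and 4 without replicate 1 or 2 of HF4 with HF4-REV. The second was 6 without replicate 2 of HF3 with HF3-REV, and 4 and 1 without replicate 1 or 2 of HF4 with HF4-REV. Spata46 had the largest excess over HF1 (3.44 ± 0.87, adjusted p = 0.144) and Spata7 that over HF3 (1.85 ± 0.59, adjusted p = 0.214). Tex261 and Tex12 were the most negative in these, at -0.72 ± 0.26 and -1.13 ± 0.24.

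**Figure D4:**
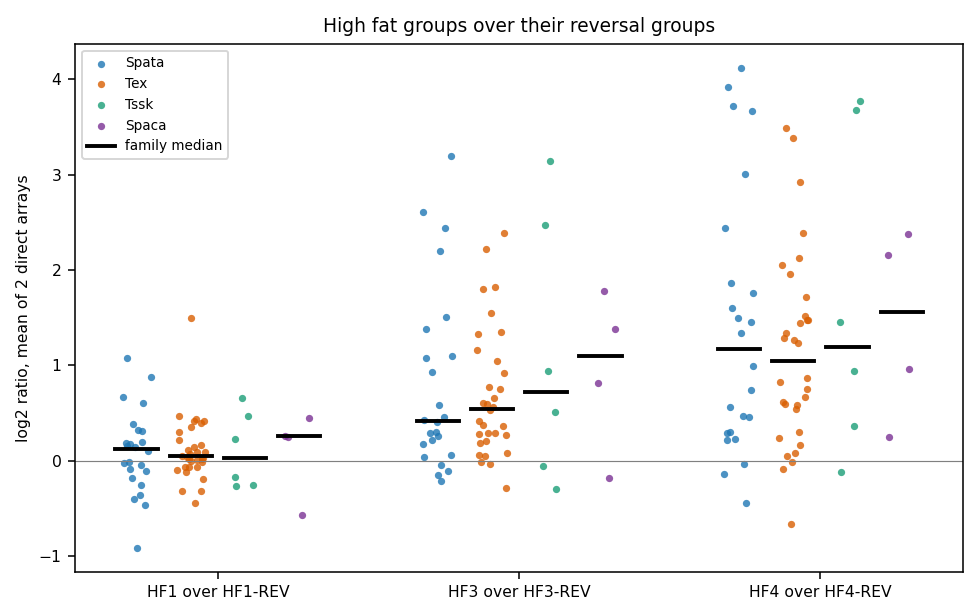
Mean log2 ratio of each gene on the 2 arrays of HF1 over HF1-REV, HF3 over HF3-REV and HF4 over HF4-REV, by family, with the family median as a bar. Family medians lie between 0.028 and 0.26 for HF1, between 0.42 and 1.10 for HF3 and between 1.05 and 1.56 for HF4.

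HF4 and HF3 were also set over HF1, the second high fat generation, on arrays of experiment 2. In HF4 over HF1 the member medians were 1.04 and 1.15 on the 2 arrays, and 19 members passed, all positive, where 2.72% of features did on that side and 2.81% in either direction. Spata24 led with 4.06 and 3.86 (4.14 ± 0.72, adjusted p = 0.0451), and Tex264 was the lowest (-0.34 ± 0.22, adjusted p = 0.519). Without the pairing that did not close, and with direct pairings only, 0 members and 0 of all features passed (45 and 38 members unadjusted). Under quantile normalization 12 members passed. Without the STD arrays of experiment 2, 35 did, where 6% of features passed. In the fit over all pairings 45 members had an unadjusted p under 0.05, against 16.5% of features. In HF3 over HF1 the medians were 0.50 and 0.72 and 0 members passed (32 unadjusted, against 9.12% of features). Without the STD arrays of experiment 2, 13 passed, where 1.97% of features did. With all arrays, Spata4 had 3.31 and 3.27 in HF3 over HF1 (3.08 ± 0.58, adjusted p = 0.243), and Spata31 the lowest estimate (-0.081 ± 0.16). Across the 6 arrays that hold HF4 over HF0, HF1 or HF4-REV in experiment 2, 43 members were positive on all of them, against 9.43% of all features. For HF3 over HF0, HF1 or HF3-REV the count was 30, against 6.32%. The arrays of each set share the HF4 or HF3 group and are not independent, and the labels do not say whether they share an extract.

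HF3 over HF0 depended on the experiment that was read. In experiment 2 the direct arrays had member medians of 0.60 and 0.73, with sums of 0.59 through HF1 and 0.84 through HF4. In experiment 1 they had 1.19 and 1.19, which is the pairing that did not close. The fit over all arrays gave a median of 0.53 with 65 of 66 positive, and 0 members passed (35 unadjusted, against 7.8% of features). Without the STD arrays of experiment 2, 20 passed, where 2.55% of features did, and under scale normalization 5 did. Without the experiment 1 pairing the median was 0.30 and 6 members had an unadjusted p under 0.05. Spata4 had 3.68 and 3.97 in experiment 1 and 3.005 and 3.40 in experiment 2 (2.83 ± 0.46, adjusted p = 0.142), or 2.04 ± 0.69 without the pairing. Tssk1 had 0.14 and 2.77 in experiment 1, so its 2 dye orientations disagreed there, and 2.12 and 2.37 in experiment 2. Spata33 was again the most negative member (-0.29 ± 0.29, adjusted p = 0.868).

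HF4 over HF3 had positive member medians on the direct arrays of both experiments. The member medians were 0.71 and 0.71 on the arrays of experiment 1 and 0.42 and 0.58 on those of experiment 2. All of these arrays were positive for 38 of 66 members, against 9.81% of all features. In experiment 1 the same contrast came to 1.12 when summed through STD and to -0.325 through HF0, with 12 of 66 positive, and the route through HF0 holds the pairing that did not close. In experiment 2 the sums were 0.74 through HF0 and 0.47 through HF1. The estimate had a median of 0.46, or 0.62 without the pairing that did not close, and 0 members passed (28 unadjusted, against 5.5% of features). Without the STD arrays of experiment 2, 6 members passed, where 1.1% of features did. Spata24 had 2.15 and 2.31 in experiment 1 and 1.81 and 1.10 in experiment 2 (1.53 ± 0.56, adjusted p = 0.837). Spata4 had 1.63 and 1.11, then 0.56 and 0.39, so its experiments did not overlap. Tex264 had the lowest estimate, -0.34 ± 0.17. Whether the step from HF3 to HF4 differed from that from HF0 to HF3 was tested in the same fit, and 0 members passed (0 unadjusted as well, against 1.7% of features). Its extremes were Spata4 (-1.91 ± 0.79) and Spata32 (0.91 ± 0.68, adjusted p = 0.997 for both).

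HF1 over HF0 had direct member medians near 0. The member medians were 0.0038 and 0.095 on the 2 arrays, and both arrays were positive for 17 of 66, against 26.7% of all features. The fitted median was -0.052, with 25 of 66 positive, and it was 0.078 in experiment 2 alone and -0.24 without the pairing that did not close, so its sign depended on the arrays used. In the fit 0 members passed (2 unadjusted, against 7.18% of features). Tex10, of a ribosome assembly complex, had the highest estimate (0.37 ± 0.24), with 0.75 and 0.46. Spata32 had the lowest (-1.05 ± 0.50, adjusted p = 0.708), and its arrays read -0.17 and -3.75, so 1 array set that value. The 2 arrays correlated at 0.04 over all features.

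STD, the normal diet group, stood in different places in the 2 experiments. In HF0 over STD of experiment 1 the member medians were 0.17 and 0.20, and both arrays were positive for 38 of 66 (22.4% of all features). In experiment 2 the 4 arrays had medians of -0.43, -0.65, -0.71 and -0.42, and 34 members were negative on all 4 (16.2% of all features). Spata4 had 0.26 and 0.0086 in experiment 1 and -3.02, -2.95, -3.11 and -3.12 in experiment 2 (-2.00 ± 0.46, adjusted p = 0.632). Tssk3 had 0.33 and 0.042, then -2.67, -3.08, -2.20 and -2.44. Spata33 ran the other way, with -0.69 and -0.82, then 0.96, 0.99, 1.11 and 0.85 (0.34 ± 0.29, adjusted p = 0.833). For these 3 genes the experiments did not overlap. In all, 26 of 66 members had one sign on every array of experiment 1 and the other on every array of experiment 2, against 11% of all features; 25 of them were positive in experiment 1 and negative in experiment 2. In the fit 0 members passed (19 unadjusted, against 7.36% of features).

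HF4 and HF3 were paired with STD directly in experiment 1 only. In HF4 over STD the 2 arrays had member medians of 1.28 and 1.00, and both were positive for 54 of 66 (25.2% of all features). In experiment 2, where the contrast runs through HF0, the median was 0.61. The fit called 9 members, all positive, where 0.424% of features passed on that side and 0.0131% on the negative side. They were Spata1, Spata45, Spata48, Tex15, Tex21, Tex24, Tex36, Tex38 and Spaca7. Tex36 had 3.06 and 2.99 on the direct arrays (2.37 ± 0.29, adjusted p = 0.0464), and Spata2l was the lowest (-0.29 ± 0.15). Without the pairing that did not close 0 passed, with 33 unadjusted (42 in the fit over all pairings, against 15% of features there). Under quantile normalization 0 passed, and without the STD arrays of experiment 2, 28 passed, where 3.92% of features did. With single arrays left out the count ran from 4 to 9, and it was 4 without replicate 1 of HF3 with STD in experiment 1 or replicate 2 of HF3 with HF0 in experiment 2. In HF3 over STD the medians were -0.064 and 0.11, both arrays were positive for 10 of 66 (20.9% of all features), and the 2 arrays correlated at -0.11 over all features. Summed through HF0, which takes in the pairing that did not close, the median was 1.36, and through HF4 it was 0.43. The fit over all arrays gave 0.26 with 58 of 66 positive, and 0 members passed (14 unadjusted, against 7.47%), with Tex36 the highest (1.03 ± 0.29, adjusted p = 0.626) and Spata32 the lowest (-0.38 ± 0.40).

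Placed against HF0 of the same experiment, the fitted group values kept 1 order for most members. In experiment 2 the member medians were 0.52 for STD, 0.078 for HF1, 0.60 for HF3 and 1.13 for HF4, and -0.081, 0.054 and 0.071 for HF1-REV, HF3-REV and HF4-REV. In experiment 1 they were 0.099 for STD, 0.51 for HF3 and 1.13 for HF4, all of which rest in part on the pairing that did not close. The direct arrays of experiment 1 put STD on the other side of HF0 (HF0 over STD median 0.13, 50 of 66 positive), HF3 at 1.20 over HF0 and HF4 at 0.68 over HF0. Those of HF4 over HF3 had a median of 0.69 with 58 of 66 positive, which puts HF4 above HF3, as the fit did. HF4 was the highest group of both experiments for 43 of 66 members, against 9.62% of all features. HF4 above HF3 above HF0 held in both for 45, against 9.33%. Over the 12 group values, each member was correlated with the mean of the others as a description, with points that share arrays. The median r was 0.88, 41 members were above 0.8, 10 lay between 0.5 and 0.8 and 15 were lower. The members least like the rest were Tex261 (-0.48), Tex264 (-0.42), Spata2 (-0.31) and Spata25 (-0.26), with Spata6 (0.35), Spata9 (0.43) and Spaca3 (0.44) also in the low group.

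**Figure D5:**
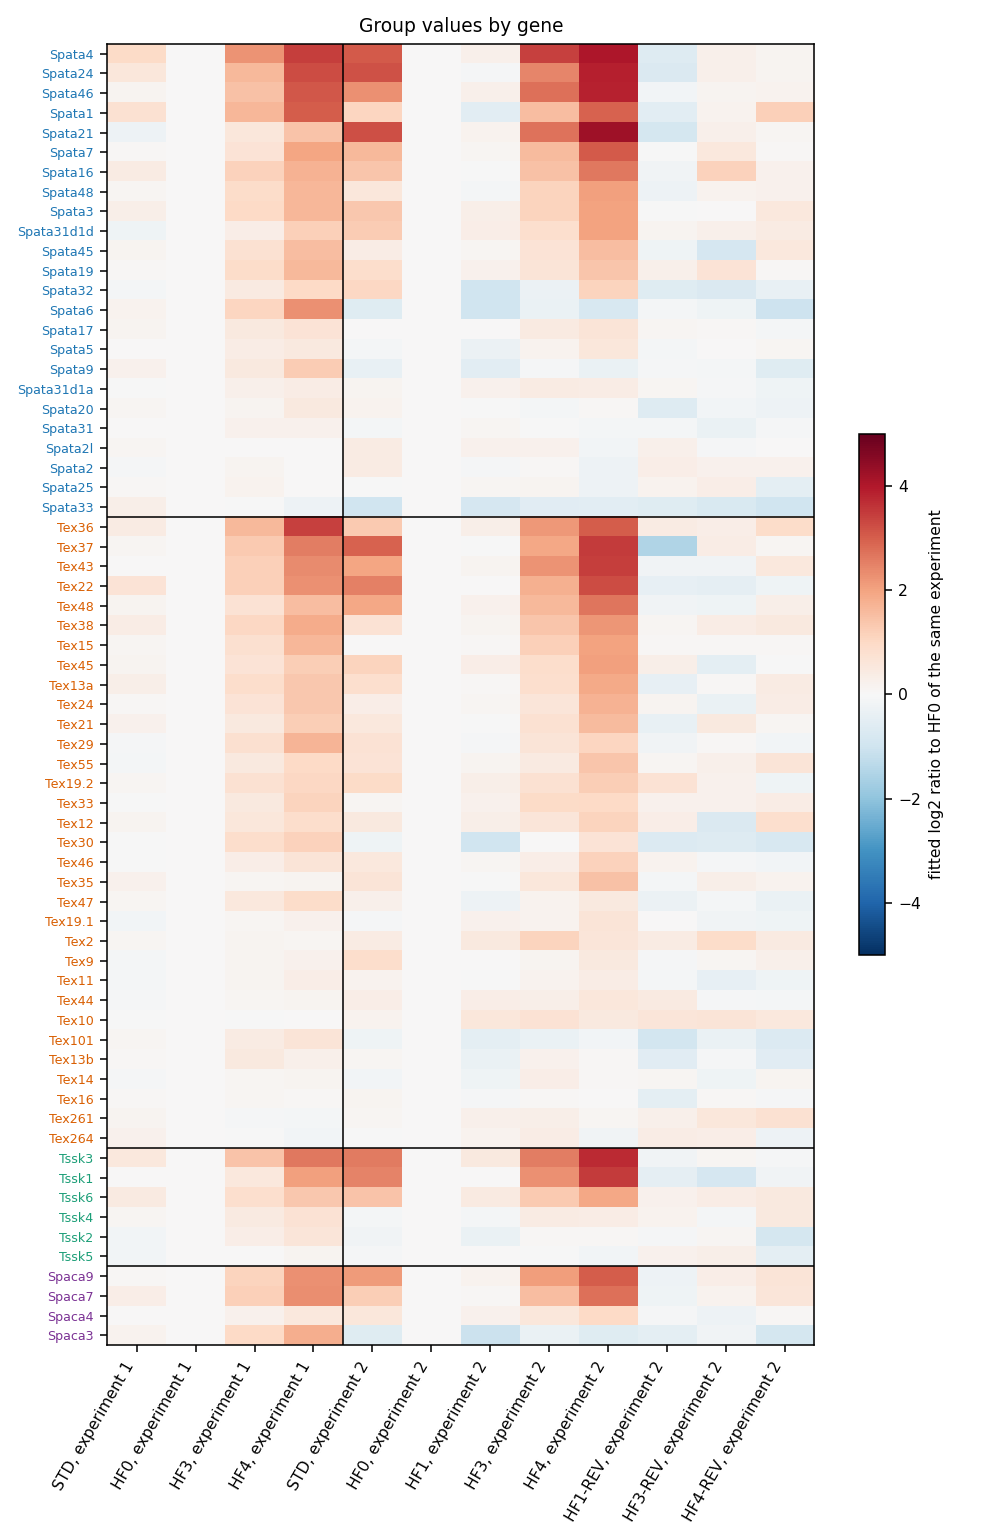
Fitted log2 ratio of each gene to HF0 of its own experiment, for the 4 groups of experiment 1 and the 8 of experiment 2, with genes ordered within their family by HF4 over HF0. The upper rows of each family are red in HF3 and HF4 of both experiments and mostly in STD of experiment 2, and mostly pale in HF1 and the 3 reversal groups, while most lower rows stay pale.

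The 4 X-linked members, Tex11, Tex13a, Tex13b and Tex16, had a median of 0.25 in HF4 over HF0, and Tex13a was the 1 of them that passed. Tex13b stood at 0.16 ± 0.13, and its ratio before turning was negative on 20 of 22 arrays of experiment 2.

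Markers of other cell types were read in the same contrast, as their part in these results was not tested. Of 22 spermatid and sperm markers, 22 were positive in HF4 over HF0 (median 3.03) and 19 passed. Of 18 meiotic germ cell markers, 17 were positive (median 1.92) and 10 passed. Both medians exceeded that of the members. Of 11 measured spermatogonia markers 7 were positive, 2 of which passed (median 0.056). Of all features 4.19% passed on the positive side. Without the pairing that did not close, or with the direct pairings tested on their own, 0 of all features passed, these markers included. The 2 somatic cell types of the testis differed. Of 11 Sertoli cell markers 5 were positive (median -0.058, 0 passed, 0 unadjusted). Of 6 measured Leydig cell markers 5 were positive (median 0.42, 0 passed, 3 unadjusted), where 10.9% of features had an unadjusted p under 0.05. Epididymis epithelium had 13 of 16 positive (median 0.26, 0 passed, 1 unadjusted), adipocytes 7 of 11 (median 0.059, 0 passed, 0 unadjusted), mesothelium 4 of 8 (median -0.017, 0 passed, 0 unadjusted) and macrophages 0 of 8 (median -0.33, 0 passed, 1 unadjusted). In HF4 over HF4-REV 6 of 6 Leydig cell markers were positive (median 0.63) and 6 of 11 Sertoli cell markers (median 0.19).

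By fitted group medians, the spermatid and sperm markers were highest in HF4, then HF3, then STD in both experiments. In experiment 2 they were lowest in HF1-REV. The fitted medians of the members kept the same order. Against HF0 the markers' medians in experiment 2 were 1.78 for STD, 0.17 for HF1, 2.32 for HF3 and 3.65 for HF4, and -0.39, 0.21 and 0.13 for HF1-REV, HF3-REV and HF4-REV. In experiment 1 they were 0.59 for STD, 1.59 for HF3 and 2.61 for HF4. These values of experiment 1, like those of the epididymis markers below, are fitted and rest in part on the pairing that did not close. The direct arrays of experiment 1 gave the members no single order. There HF3 had a median of 1.20 and HF4 of 0.68 over HF0, and HF0 had 0.13 over STD. Yet the arrays that hold both HF4 and HF3 had a median of 0.69 for HF4 over HF3 (58 of 66 positive). The epididymis markers followed another order: STD stood at 4.61 in experiment 2 and 1.34 in experiment 1, HF3 at 0.31 and 0.63, and HF4 at 0.50 and 0.24. The other groups of experiment 2 stood at 0.27 for HF1, -0.60 for HF1-REV, -0.15 for HF3-REV and -0.11 for HF4-REV on these markers. By fitted medians, STD of experiment 2 was thus above HF0 in both marker sets. HF4 was below STD in the epididymis set and above it in the spermatid set in both experiments. The direct arrays of HF4 over STD, in experiment 1 only, had an epididymis median of -0.19, where the fit gave -1.12. Their spermatid median was 2.15, where the fit gave 1.98.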

How the data were processed

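RNA of epididymal fat was compared on 34 two-colour arrays. For each array the authors deposited a log2 ratio for all 25344 probes, from -6.31 to 7.99 and with array medians between -0.062 and 0.046. The sources used here give neither background correction nor normalization nor log base, and base 2 was assumed. Dim spots could not be removed, since intensities were not used, and precision is limited by the number of arrays. RNA came from Trizol in experiment 1 and Qiagen reagents in experiment 2, per the labels' protocols, so extraction and experiment cannot be told apart.

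Probes were named through the platform annotation: 21082 had 1 symbol, 30 several and 4232 none, and 20456 symbols were updated by gene ID; 0 members changed name. Arrays were centred on their median, ratios turned for dye, dye swaps averaged, and group values fitted by least squares within each experiment. The 12 group values were tested with limma 3.58.1 in R 4.3.3 (experiment as block, 3 residual and 3.16 prior degrees of freedom, Benjamini-Hochberg over 22879 features, threshold 0.05), after a test on simulated data. The simulated pairings closed apart from noise and held no dye effect. That test therefore cannot show how the fit behaves where pairings do not close. Python 3.11.15, numpy 2.4.6, pandas 2.3.3 and matplotlib 3.10.9 were used for preparation and figures.

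Named were each Tssk and Spaca gene, in Spata and in Tex the 8 largest past the threshold in HF4 over HF0 and the 3 smallest, and each contrast's extremes. Others, such as Spata21, Tex37, Spata9, Tex11, Tex12 and the genes listed in full for HF4 over STD, were chosen after their values were seen. Members, marker lists and motifs were chosen with earlier results of these data known.

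Alternatives were no centring, scale or quantile normalization, the most variable probe of a gene, a robust prior, leaving out the STD arrays of experiment 2 or each array, and each experiment or the direct arrays alone. Leaving out the HF3 with HF0 pairing of experiment 1 and testing direct pairings were added after seeing the data.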

Additional observations from a re-analysis of the deposited data

Results flagged for a closer look

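For 3 of the named genes, 1 of the 4 arrays of HF0 over STD in experiment 2 stood apart from the others, a different array for each gene, and chance sets a value apart in about 1 of 20 such groups. Tssk5 read -0.54 on its array against 0.18, 0.32 and 0.23 on the others. Tex15 read -0.38 against 0.096, 0.067 and 0.070. Tex45 read -1.32 against -1.04, -1.04 and -1.08.

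For some genes printed by array, every array of experiment 1 had the opposite sign to every array of experiment 2, and the differences were not tested. In HF0 over STD this held for 26 of 66 members, of which these 3 were described: Spata4 averaged 0.13 in experiment 1 and -3.05 in experiment 2, Tssk3 averaged 0.19 and -2.60, and Spata33 averaged -0.76 and 0.98. In HF4 over HF0 it held for 1 member, Spata31, which averaged 0.16 in experiment 1 and -0.15 in experiment 2.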

How the results depend on the processing

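Under no centring the HF4 over HF0 median was 1.00, the HF1 over HF1-REV median 0.095 and the HF3 over HF3-REV count 1. Under scale normalization the HF3 over HF0 count was 5 and that of HF3 over HF3-REV 3, with medians of 0.94 for HF4 over HF0 and 0.91 for HF4 over HF4-REV. Under quantile normalization the counts were 0 for HF4 over STD, 12 for HF4 over HF1, 2 for HF3 over HF3-REV and 1 for HF4 over HF4-REV, with medians of 0.38 for HF3 over HF0, 0.78 for HF4 over HF0, 0.42 for HF3 over HF1, 0.82 for HF4 over HF1, 0.12 for HF1 over HF1-REV and 0.83 for HF4 over HF4-REV. Without the STD arrays of experiment 2 the counts were 28 for HF4 over STD, 20 for HF3 over HF0, 13 for HF3 over HF1, 35 for HF4 over HF1, 6 for HF4 over HF3 and 21 for HF3 over HF3-REV, 17 and 1 for the excess of HF4 over HF4-REV above that of HF1 and of HF3, and the HF4 over HF4-REV median was 1.04. Without the HF3 with HF0 pairing of experiment 1 the counts were 0 for HF4 over STD, HF4 over HF0 and HF4 over HF1 and 7 for HF4 over HF4-REV (limma, 33, 41, 45 and 46 unadjusted), with medians of -0.24 for HF1 over HF0, 0.30 for HF3 over HF0, 0.85 for HF4 over HF0, 0.44 for HF3 over HF1 and 0.62 for HF4 over HF3. With direct pairings tested those 4 counts were 0 (34, 39, 38 and 37 unadjusted), and on the direct arrays the medians were 1.21 for HF4 over STD, 0.0033 for HF1 over HF0, 0.73 for HF3 over HF0, 0.91 for HF4 over HF0, 1.00 for HF4 over HF1 and 0.58 for HF4 over HF3. Experiment 1 alone gave 1.13 for HF4 over HF0. Experiment 2 alone gave 0.078 for HF1 over HF0, 0.60 for HF3 over HF0, 1.13 for HF4 over HF0 and 0.57 for HF4 over HF3. The HF1 over HF0 median thus changed sign, and the causes of these moves were not tested. No share of all features is given here for the unadjusted counts under these settings. The same holds for counts under no centring, scale or quantile normalization, or with single arrays left out.

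With each array left out in turn, medians ran from -0.31 to -0.26 for HF0 over STD, -0.12 to -0.028 for HF1 over HF0, 0.079 to 0.12 for HF1 over HF1-REV, 0.49 to 0.59 for HF3 over HF0, 0.55 to 0.68 for HF3 over HF1, 0.51 to 0.81 for HF3 over HF3-REV, 0.20 to 0.27 for HF3 over STD, 0.97 to 1.06 for HF4 over HF0, 1.05 to 1.25 for HF4 over HF1, 0.40 to 0.54 for HF4 over HF3, 1.06 to 1.21 for HF4 over HF4-REV and 0.69 to 0.85 for HF4 over STD. Counts ran from 27 to 34 for HF4 over HF0, 18 to 22 for HF4 over HF1, 25 to 42 for HF4 over HF4-REV, 4 to 9 for HF4 over STD, 0 to 19 for HF3 over HF3-REV, 0 to 1 for HF1 over HF1-REV, and 0 to 11 and 0 to 6 for the excess of HF4 over HF4-REV above that of HF1 and of HF3. Of the named genes' values under the other settings, 501 kept direction and side of the threshold, 76 moved, 55 lost the threshold, 9 gained it and 0 changed sign past it. No paired analysis was possible because the labels give the groups no shared replicate numbers; this concerns pairing by replicate number only, as experiment was a block and each array itself sets 1 group against another. Without intensities, signal over background is unknown.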
